A study of Mus musculus with 4 samples.

Results

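CC chemokines are small secreted proteins, and the 10 members described here are the listed genes *Ccl2*, *Ccl3*, *Ccl4*, *Ccl5*, *Ccl6*, *Ccl7*, *Ccl8*, *Ccl9*, *Ccl11* and *Ccl25*. They were chosen by symbol as the CC chemokines of leukocytes and stroma. All 10 were among the 16015 genes listed and all 10 passed the filter on low values. Bulk RNA sequencing had been performed on colonic epithelial cells of 2 control and 2 *Bmal1* cKO mice on a C57BL/6 background, 2–4 months of age. *Bmal1* cKO mice were *Villin-CreERT2*;*Bmal1* fl/fl, in which the *Villin* promoter drives an inducible Cre in the intestinal epithelium, and received tamoxifen for 5 days, while controls, labelled WT, were *Bmal1* fl/fl. Whether the controls also received tamoxifen was not given in the sources used here. Both groups drank 3% dextran sulfate sodium (DSS), a polysaccharide that injures the colonic epithelium, for 5 days, followed by 2 days of water, and were sampled on day 7.

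CC chemokines bind heparan sulfate on cell surfaces and in the matrix, and the resulting gradients guide leukocytes that carry G protein-coupled CC receptors. In the injured intestine they are known to come from macrophages, neutrophils, lymphocytes, fibroblasts and endothelium, and some are made by the epithelium itself. *Ccl25* is known from epithelium and for drawing *Ccr9*-bearing lymphocytes to the small intestine and thymus.

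The libraries held 10312791 to 14156639 reads on the listed genes. The targeted gene, listed as *Arntl*, had 350 ± 11.3 normalized counts in control and 315 ± 36.9 in *Bmal1* cKO libraries (SD, n = 2 each). The log2 difference was -0.16 (limma adjusted p = 0.389, standard error 0.14), so directions are given by library label only. Markers fitted the label of epithelium in all libraries, with summed counts of 10 epithelial genes between 135455 and 170585. Markers of other cells were also present, and those of most cell types were lower in the *Bmal1* cKO libraries, where 27.7% of all tested genes fell and 29.0% rose. All 5 leukocyte markers fell (*Ptprc* and 4 others, summed counts 4538 and 3085 in control, 542 and 719 in *Bmal1* cKO), as did 10 of 12 for monocytes and macrophages (9453 and 8514, 2022 and 1955), 6 of 6 for neutrophils (8691 and 24164, 3493 and 2826), 5 of 7 for fibroblasts (13365 and 2217, 442 and 466) and 4 of 5 for endothelium (1471 and 356, 63.8 and 90.6). In the *Bmal1* cKO libraries most of the neutrophil sum was *Ly6g* (2918 and 2549), while *Ngp*, at 156 and 706 in control, had 0 in both. Of the T cell markers 3 of 6 fell, and of those for pericytes and smooth muscle 5 of 5. Of the B and plasma cell markers only 1 of 6 fell, and of 2 mast cell markers 1 fell and the chymase *Cma1* rose (82.8 and 52.5 against 172 and 126, log2 fold change 1.14, adjusted p = 0.0293). The neutrophil granule genes *Mpo* and *Elane* and the eosinophil genes *Prg2* and *Epx* were not listed. In bulk tissue fewer cells of a type and less RNA per cell cannot be told apart, and the part of these markers in the results below was not tested. The log2 fold change also followed GC content, with a median of 1.13 in the tenth of genes lowest in GC and -1.35 in the tenth highest. After the correction for GC content and exon length given below, the leukocyte, macrophage and fibroblast markers lower stayed at 5, 10 and 5. The counts lower were then 5 for neutrophils, 3 for endothelium, 1 for T cells, 4 for pericytes and smooth muscle and 0 for B and plasma cells, beside 17.6% of all genes.

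*Ccl3*, *Ccl4* and *Ccl5*, known from macrophages and lymphocytes, and *Ccl6* and *Ccl9*, known from myeloid cells, fell in the *Bmal1* cKO libraries. *Ccl2*, *Ccl7*, *Ccl8* and *Ccl11* were high in only 1 of the 2 control mice, and *Ccl25*, known from epithelium, rose before correction for GC content. Of the 10 members, 5 fell (*Ccl3*, *Ccl4*, *Ccl5*, *Ccl6* and *Ccl9*), 1 rose (*Ccl25*), together 6 of 10, and 4 did not pass the test (*Ccl2*, *Ccl7*, *Ccl8* and *Ccl11*), against 56.7% of all 13983 genes tested that changed, 27.7% that fell and 29.0% that rose. The median log2 fold change of the members was -2.64, beside -0.04 for all tested genes. For 7 members both *Bmal1* cKO libraries lay below both control libraries, as they did for 41.7% of all tested genes, and for *Ccl25* both lay above, as for 40.3%. After a loess correction for GC content and exon length in each library, 4 members were lower and 0 higher, against 17.6% and 18.4% of all genes. Tests were by limma on log2(normalized count + 1) with Benjamini-Hochberg adjustment over all tested genes, and fold changes on this scale understate the change of genes with few reads.

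**Figure D1:**
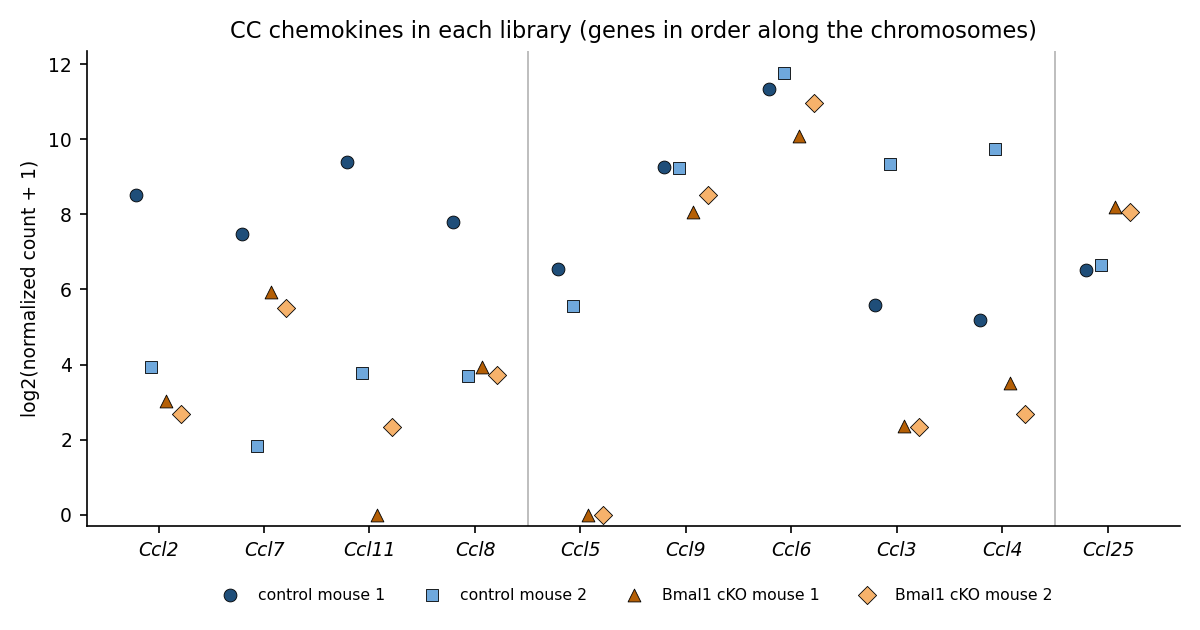
Normalized counts of the 10 CC chemokines in each of the 4 libraries, plotted as log2(normalized count + 1), 1 point per mouse. *Ccl2*, *Ccl7*, *Ccl8* and *Ccl11* had 1 high control mouse and *Ccl3* and *Ccl4* the other, while the control mice lay close together for *Ccl9* and *Ccl25*.

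Of the 10 genes, 9 lie on mouse chromosome 11 (GRCm38) in 2 groups, and *Ccl25* lies alone on chromosome 8. The first group holds *Ccl2* (chr11:82035571-82037453), *Ccl7* (chr11:82045712-82047525), *Ccl11* (chr11:82057823-82062955) and *Ccl8* (chr11:82115185-82116799), all on the plus strand. The other group holds *Ccl5* (chr11:83525778-83530518), *Ccl9* (chr11:83572919-83578636), *Ccl6* (chr11:83587882-83593087) and *Ccl3* (chr11:83647844-83649355) on the minus strand, and *Ccl4* (chr11:83662584-83664683) on the plus strand. *Ccl25* (chr8:4325210-4360020, plus strand) shares 204 of its 7445 exon bases with *Elavl1* on the other strand, an RNA-binding protein gene with 1113 and 1165 normalized counts in control and 1631 and 1467 in *Bmal1* cKO libraries. The strand setting of the counting was not given, so reads on those bases cannot be assigned.

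Promoter sequences (RefSeq, GRCm38.p6) are shown for *Ccl25*, which rose, at both of its annotated starts, and for *Ccl8* and *Ccl9*, 1 from each chromosome 11 group. Each is the 250 bases before the start, 5′ to 3′ on the strand of the gene. Capitals mark matches, on either strand, to the TATA motif TATAAA, the AP-1 motif TGANTCA or the NF-κB consensus. The windows are chr8:4324960-4325209 and chr8:4349338-4349587 on the plus strand, chr11:82114935-82115184 on the plus strand and chr11:83578637-83578886 on the minus strand.
Ccl25, first start: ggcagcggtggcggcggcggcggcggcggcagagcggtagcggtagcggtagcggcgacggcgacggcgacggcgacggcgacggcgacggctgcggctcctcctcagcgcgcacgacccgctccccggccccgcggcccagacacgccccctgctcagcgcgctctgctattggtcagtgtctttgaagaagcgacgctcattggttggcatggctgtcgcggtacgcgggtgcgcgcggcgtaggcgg
Ccl25, internal start: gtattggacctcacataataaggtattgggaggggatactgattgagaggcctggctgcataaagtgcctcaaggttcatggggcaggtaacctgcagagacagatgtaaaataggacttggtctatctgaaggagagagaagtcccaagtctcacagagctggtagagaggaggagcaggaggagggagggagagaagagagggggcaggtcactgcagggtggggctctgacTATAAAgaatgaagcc
Ccl8: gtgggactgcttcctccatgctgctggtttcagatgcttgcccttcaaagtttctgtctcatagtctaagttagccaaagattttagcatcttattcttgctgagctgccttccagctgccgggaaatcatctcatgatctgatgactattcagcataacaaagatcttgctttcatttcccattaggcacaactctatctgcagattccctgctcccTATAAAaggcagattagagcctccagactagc
Ccl9: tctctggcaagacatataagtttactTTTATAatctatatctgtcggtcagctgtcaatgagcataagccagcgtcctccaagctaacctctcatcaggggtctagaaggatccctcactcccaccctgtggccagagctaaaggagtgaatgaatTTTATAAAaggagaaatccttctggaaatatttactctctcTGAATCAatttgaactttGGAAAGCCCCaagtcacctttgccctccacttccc

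The first *Ccl25* window had a GC content of 74.8% and held none of these motifs, whereas the internal window had 51.6% GC and held TATAAA 16 bases before the start. The *Ccl8* window held TATAAA 32 bases before the start. The *Ccl9* window held 5 matches, namely TATAAA on the gene's strand and, overlapping it and again further upstream, on the other strand, an AP-1 motif and an NF-κB match. The windows of *Ccl3* and *Ccl6*, not printed, held 0 matches. Over 6 windows of 5 members none held the E-box CACGTG, the motif that BMAL1 with CLOCK is known to bind, and 6.02% of all 32851 promoter windows did. TATAAA was held by 12.4%, TGANTCA by 6.75% and the NF-κB consensus by 7.25% of all windows. A match is a description of the letters and not of binding.

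*Ccl3*, *Ccl4* and *Ccl5*, inflammatory chemokines made by activated macrophages, neutrophils and lymphocytes, fell to a few reads or to 0 in the *Bmal1* cKO libraries. *Ccl5* had 92.9 and 45.7 normalized counts in control mice 1 and 2 (110 and 54 reads) and 0 in both *Bmal1* cKO mice. It was at least 19.4-fold lower against a floor of 3 reads per library (12.8-fold without control mouse 1), with a limma adjusted p of 0.0023. The 2 groups were separate and no *Ccl5* read was seen in either *Bmal1* cKO library.

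*Ccl3*, also a ligand of *Ccr1*, had 47.3 and 651 normalized counts in control and 4.11 and 4.06 in *Bmal1* cKO libraries. Its log2 fold change was -5.12 (95% confidence interval -8.15 to -2.10, adjusted p = 0.0163). Both control mice were above both *Bmal1* cKO mice, although control mouse 2 was 13.8-fold above control mouse 1. *Ccl4* had 35.5 and 859 normalized counts in control and 10.3 and 5.41 in *Bmal1* cKO libraries, with a log2 fold change of -4.38 (-8.02 to -0.74, adjusted p = 0.0475). The high library was again control mouse 2, and the *Ccl4* groups did not overlap either. With a pseudocount of 5 the *Ccl4* call was lost (-3.89, limma adjusted p = 0.0616). Without control mouse 2 the *Ccl3* change was -3.25 (adjusted p = 0.0191). The *Ccl4* call was lost after GC correction, with nearly the same change (-4.33, adjusted p = 0.0683), and without control mouse 2 (-2.10, adjusted p = 0.0649), and both calls were lost without *Bmal1* cKO mouse 1 or 2 (adjusted p from 0.112 to 0.232), although the changes stayed at -5.13 and -5.12 for *Ccl3* and -4.79 and -3.97 for *Ccl4*.

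*Ccl6* and *Ccl9*, related chemokines that act at *Ccr1* and are known from myeloid cells, fell by smaller amounts and stayed well detected in every library. The median log2 fold change of the monocyte and macrophage markers was -3.34. Which cells made these chemokines here was not tested. *Ccl9* had 618 and 606 normalized counts in control and 267 and 364 in *Bmal1* cKO libraries, or 612 ± 8.44 against 316 ± 68.0 (SD, n = 2 each). The groups were separate and the control mice nearly equal. The log2 fold change of *Ccl9* was -0.97 (limma adjusted p = 0.0065, standard error 0.17), and -1.77 (adjusted p = 0.0035) after GC correction. Without control mouse 1 or control mouse 2 the change was -0.96 or -0.98, with adjusted p of 0.0614 or 0.0547.

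*Ccl6* had 2571 and 3491 normalized counts in control and 1084 and 1995 in *Bmal1* cKO libraries, and fell by 1.03 on the log2 scale (standard error 0.31, adjusted p = 0.0363). The *Bmal1* cKO mice differed from each other nearly as much as the groups did, but no values overlapped. The call was lost without *Bmal1* cKO mouse 1 (-0.59, adjusted p = 0.137), control mouse 1 (-1.25, 0.0989) or control mouse 2 (-0.81, 0.206), and edgeR gave an adjusted p of 0.0506. *Ccl6* held 52.6% and 60.3% of the summed member counts in control and 62.4% and 73.9% in *Bmal1* cKO libraries.

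Set against the pan-leukocyte gene *Ptprc*, which also fell, *Ccl9* stood at 49.1 and 81.3 per 100 *Ptprc* counts in control and 85.0 and 87.9 in *Bmal1* cKO libraries. *Ccl6* stood at 204 and 468 in control and 344 and 482 in *Bmal1* cKO libraries per 100 *Ptprc* counts. By this measure neither was below both control mice in the *Bmal1* cKO libraries. *Ccl3* by contrast stood at 3.76 and 87.3 in control and 1.31 and 0.98 in *Bmal1* cKO libraries per 100 *Ptprc* counts. *Ccl5* stood at 7.38 and 6.14 in control and 0 in both *Bmal1* cKO libraries. *Ccl4* stood at 2.82 and 115 in control and 3.27 and 1.31 in *Bmal1* cKO libraries, so its groups overlapped by this measure. The ratios depended on the marker, since *Ptprc* fell least of the 5 leukocyte markers (log2 fold change -1.42, list median -3.71). *Coro1a*, a marker chosen after its values were seen, was used in the same way. Per 100 *Coro1a* counts *Ccl3* stood at 3.93 and 79.6 in control and 8.89 and 4.29 in *Bmal1* cKO libraries, so its groups overlapped. *Ccl9* stood at 51.3 and 74.1 in control and 578 and 384 in *Bmal1* cKO libraries, and *Ccl6* at 213 and 427 against 2342 and 2109. The ratios were not corrected for GC content, which is 58.0% for *Coro1a* and 39.4% for *Ptprc*. The log2 fold change of *Coro1a* was -3.88, and -2.87 after GC correction, while that of *Ptprc* became -2.50. These ratios are given as a description, with no test.

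The monocyte chemoattractants *Ccl2* and *Ccl7*, which act at *Ccr2*, together with *Ccl8* and the eosinophil chemoattractant *Ccl11* (eotaxin), did not pass the test. *Ccl2* had 366 and 14.4 normalized counts in control and 7.20 and 5.41 in *Bmal1* cKO libraries, with a log2 fold change of -3.37 (95% confidence interval -7.05 to 0.30, adjusted p = 0.0992). The groups did not overlap, but control mouse 2 lay near the *Bmal1* cKO mice. *Ccl11* had 668 and 12.7 normalized counts in control (791 and 15 reads) and 0 and 4.06 in *Bmal1* cKO libraries (0 and 3 reads). Its log2 fold change was -5.41 (-10.25 to -0.57, adjusted p = 0.0585), and the reads pooled over each group, scaled to depth, differed 195-fold with a 95% counting interval of 66.3 to 945 that leaves out the spread between mice. The *Ccl11* groups were also separate, with nearly all the reads in control mouse 1.

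*Ccl8* had 222 and 11.9 normalized counts in control and 14.4 and 12.2 in *Bmal1* cKO libraries, with a log2 fold change of -1.91 (-5.22 to 1.40, adjusted p = 0.257). *Ccl7* had 177 and 2.54 normalized counts in control and 59.7 and 44.6 in *Bmal1* cKO libraries, with a log2 fold change of 1.07 (-3.35 to 5.48, adjusted p = 0.623). In both genes the groups overlapped, since control mouse 2 lay below the *Bmal1* cKO mice and control mouse 1 above them. Without control mouse 1 the *Ccl7* change was 3.89 (adjusted p = 0.0173) and without control mouse 2 it was -1.76 (0.037), so its direction turned on which control mouse was kept. For *Ccl8* these values were 0.15 (0.81) and -3.97 (0.0138), for *Ccl2* -1.09 (0.16) and -5.66 (0.0131), and for *Ccl11* -2.61 (0.167) and -8.22 (0.0202). DESeq2 on the recovered reads called *Ccl2*, *Ccl8* and *Ccl11* lower, with adjusted p of 1.77e-04, 0.0154 and 0.0202.

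**Figure D2:**
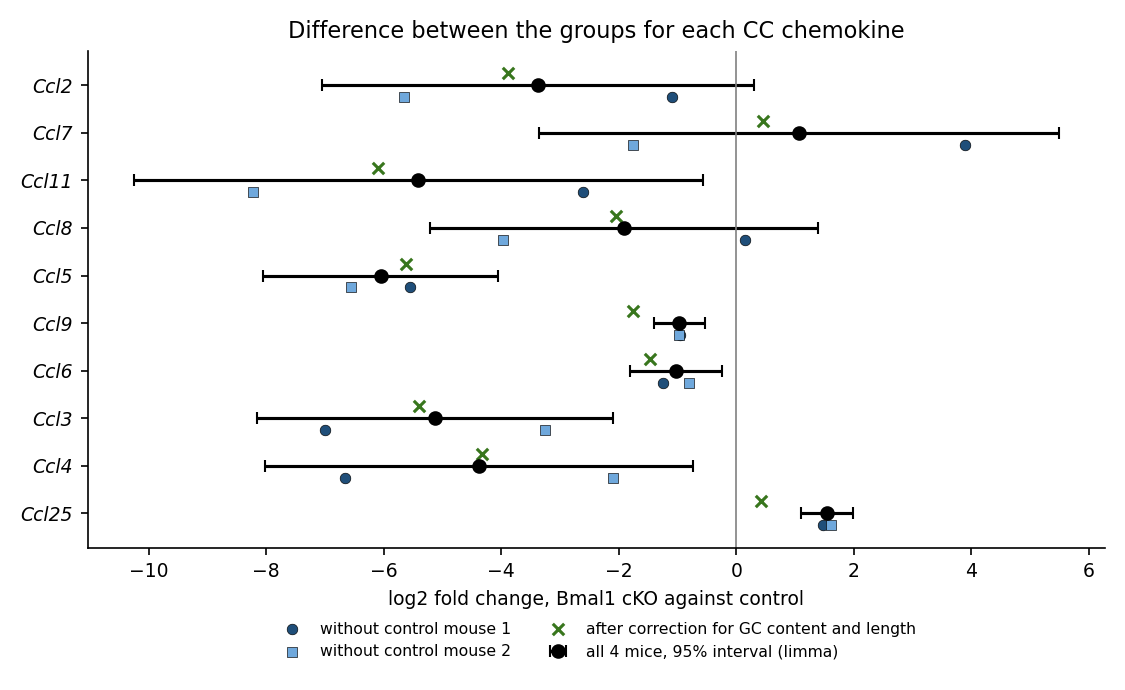
Log2 fold change of each CC chemokine in *Bmal1* cKO against control libraries, with its 95% confidence interval from limma and the value after correction for GC content and length. The intervals of *Ccl2*, *Ccl7* and *Ccl8* included 0, that of *Ccl9* was narrow at -1.41 to -0.53, and *Ccl25* moved from 1.54 to 0.42 with the correction.

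The control mice differed widely from each other in 6 of the 10 members. Control mouse 1 was above control mouse 2 by 25.4-fold for *Ccl2*, 69.8-fold for *Ccl7*, 18.7-fold for *Ccl8* and 52.6-fold for *Ccl11*. These 4 members are among 152 tested genes, or 1.09%, with more than a 10-fold excess in control mouse 1. Control mouse 2 was above control mouse 1 by 13.8-fold for *Ccl3* and 24.2-fold for *Ccl4*, which are among 18 such genes, or 0.129%. Summed over *Ccl2*, *Ccl7*, *Ccl8* and *Ccl11* the normalized counts were 1434 and 41.5 in control mice 1 and 2, and over *Ccl3* and *Ccl4* they were 82.8 and 1509. Without *Ccl6*, all members summed to 2317 and 2301 in the control mice, nearly the same total from different genes, and to 653 and 706 in the *Bmal1* cKO mice.

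Marker lists differed between the control mice as well. The median log2 difference of control mouse 1 from control mouse 2 was 2.36 for fibroblast markers, higher in 7 of 7, and 2.06 for endothelium, in step with the mouse high in *Ccl2*, *Ccl7*, *Ccl8* and *Ccl11*. It was 1.26 for monocytes and macrophages, 3.31 for B and plasma cells, 1.62 for T cells and 1.60 for dendritic cells, so the fibroblast side was shared by several lists. It was -0.39 for eosinophils and -0.22 for epithelium. For neutrophils it was -1.99, with 0 of 6 markers higher in control mouse 1, in step with the mouse high in *Ccl3* and *Ccl4*. The neutrophil alarmin *S100a8* had 1424 and 8066 normalized counts and the collagen gene *Col1a1* 1719 and 408 in control mice 1 and 2. The part of these cell types in the chemokine values was not tested.

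**Figure D3:**
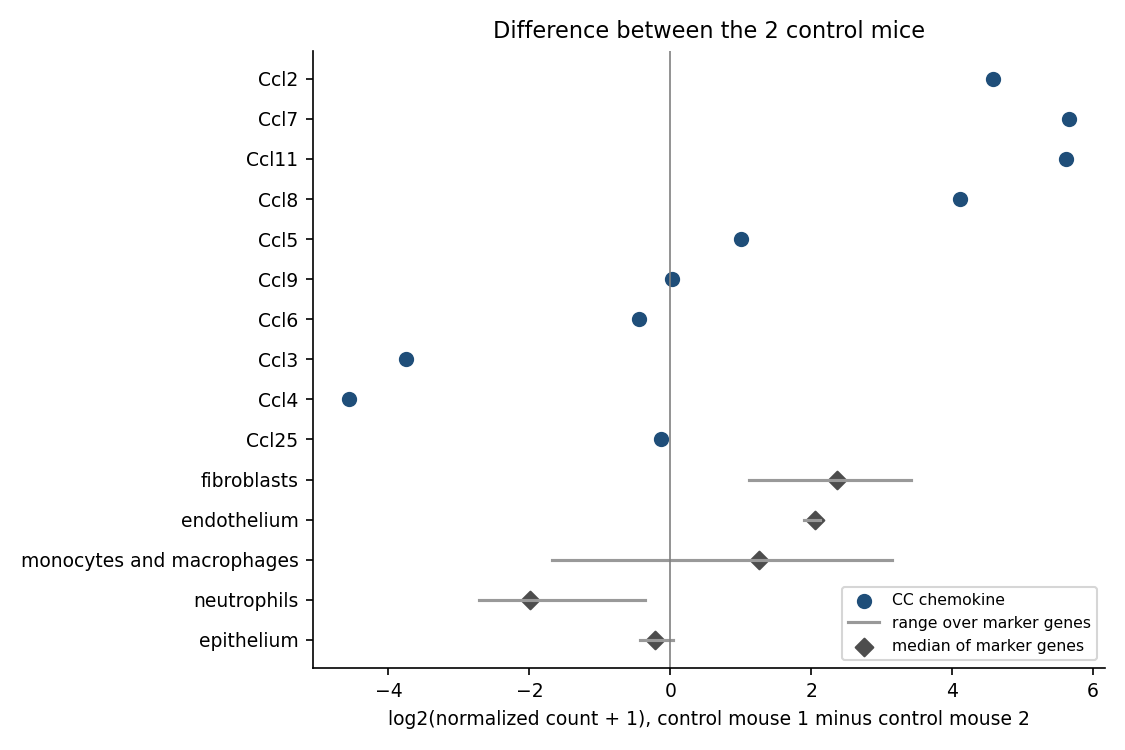
Log2 difference between control mouse 1 and control mouse 2 for the 10 CC chemokines and for marker lists, with the list medians. The lists shown are fibroblasts, endothelium, monocytes and macrophages, neutrophils and epithelium. *Ccl2*, *Ccl7*, *Ccl8* and *Ccl11* lay on the side of the fibroblast, endothelium and macrophage markers (medians 2.36, 2.06 and 1.26). *Ccl3* and *Ccl4* lay on that of the neutrophil markers (median -1.99).

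*Ccl25* was the only member that rose. It had 90.4 and 99.1 normalized counts in control and 290 and 266 in *Bmal1* cKO libraries, or 94.8 ± 6.16 against 278 ± 16.8 (SD, n = 2 each), a 2.94-fold difference. The mice of each group lay close together and the groups were far apart. The log2 fold change was 1.54 (95% confidence interval 1.10 to 1.99, limma adjusted p = 0.0016). The longest *Ccl25* transcript has a GC content of 39.2%, in the tenth of genes lowest in GC, whose median log2 fold change was 1.13. After correction for GC content and length the change was 0.42 (adjusted p = 0.122) and the call was lost.

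The sign of the *Ccl25* change was the same after the correction, and leaving out any 1 mouse gave 1.48 to 1.61 with adjusted p of 0.0181 to 0.0273. The small intestinal genes *Lct*, *Apoa4* and *Gata4* were not listed, and of 3 small intestinal markers tested 2 fell and 0 rose (beside 27.7% and 29.0% of all genes, and 1 lower after GC correction, beside 17.6%), *Rbp2*, a retinol-binding protein, from 37.2 and 154 to 4.11 and 9.46 normalized counts. Of 6 colonic markers 3 rose and 1 fell, beside 29.0% and 27.7% of all genes, and after GC correction 2 were higher and 0 lower, beside 18.4% and 17.6%. The chloride-bicarbonate exchanger *Slc26a3* had 2200 and 4707 normalized counts in control and 13157 and 15104 in *Bmal1* cKO libraries (log2 fold change 2.13, adjusted p = 0.0049). The part of these epithelial genes in the *Ccl25* value was not tested.

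**Figure D4:**
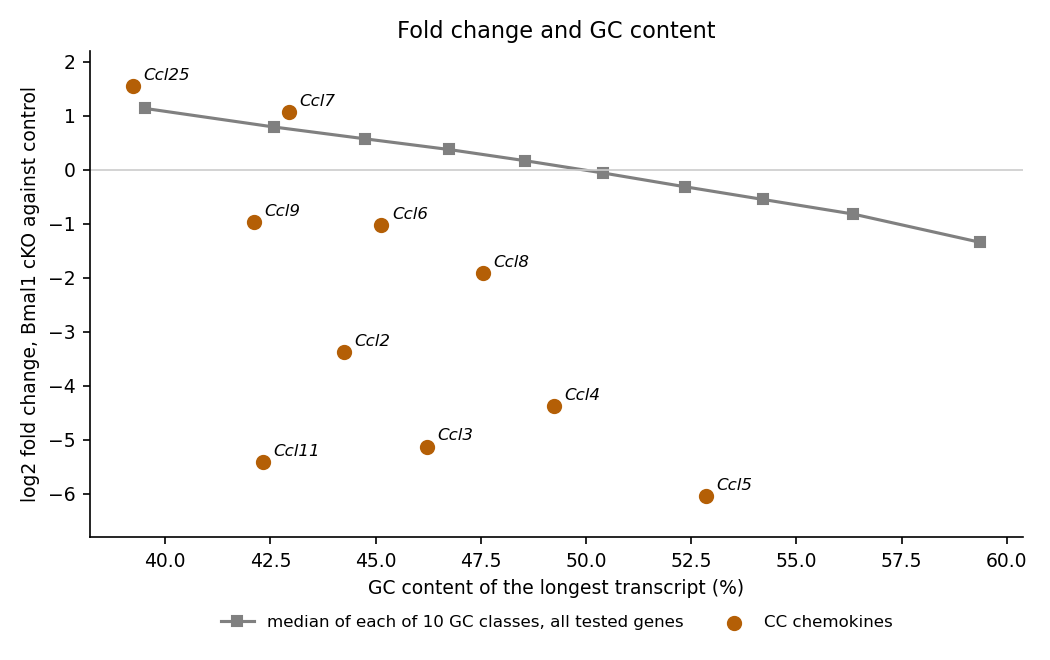
Log2 fold change of the 10 CC chemokines against the GC content of the longest transcript, with the median of each of 10 classes of all tested genes ordered by GC content. *Ccl25* and *Ccl7* lay just above the line of medians, which ran from 1.13 to -1.35, and the other 8 members below it.

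Set per kilobase of exon, the level of *Ccl6* was the highest of the members in every library, at 1432 and 1945 normalized counts per kilobase in control and 604 and 1111 in *Bmal1* cKO. In control mouse 1 the next levels were those of *Ccl11* (618), *Ccl8* (435), *Ccl2* (321), *Ccl7* (221) and *Ccl9* (203). In control mouse 2 they were *Ccl4* (1301), *Ccl3* (849) and *Ccl9* (199), so between *Ccl6* and *Ccl9* the order differed between the control mice. *Ccl25* was the lowest member in control mouse 1 at 12.1 per kilobase and stood at 13.3 in control mouse 2. This rank rests on its exon length over all annotated transcripts, 7445 bases against at most 3045 for the others. By normalized counts *Ccl25* (90.4) lay above *Ccl3* (47.3) and *Ccl4* (35.5) in control mouse 1. In the *Bmal1* cKO libraries *Ccl9* (87.8 and 119), *Ccl7* (74.5 and 55.7) and *Ccl25* (39.0 and 35.8) followed *Ccl6* in the same order in both mice.

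Of 14 other CC chemokines on a list of the family, 5 were listed and 3 tested, and 1 of these rose and 0 fell, beside 29.0% and 27.7% of all genes. *Ccl28*, the mucosal epithelial chemokine that draws IgA plasma cells through *Ccr10*, had 868 and 901 normalized counts in control and 4965 and 5799 in *Bmal1* cKO libraries. It rose by 2.60 on the log2 scale (standard error 0.11, limma adjusted p = 0.0005), and by 1.64 (adjusted p = 0.0027) after GC correction, so unlike *Ccl25* its call was kept. *Ccl20*, the epithelial ligand of *Ccr6*, had 146 and 83.9 in control and 63.8 and 87.9 in *Bmal1* cKO libraries, with overlapping groups (-0.56, adjusted p = 0.227, but -1.59 with 0.0237 after GC correction). *Ccl27a*, a skin chemokine, had 25.3 and 19.5 against 11.3 and 12.2 (-0.87, adjusted p = 0.205). *Ccl12*, which lies between *Ccl11* and *Ccl8*, had 11 and 6 reads in control and 1 and 1 in *Bmal1* cKO libraries, and *Ccl22*, a ligand of *Ccr4*, had 31 and 9 against 0 and 3, both too few to be tested.

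The receptor *Ccr1* also fell. Of the 11 CC receptors described, 8 were listed and 6 tested, and 1 fell and 0 rose, beside the 27.7% of all genes that fell. All 6 had a negative log2 fold change, as did 7155 of all 13983 tested genes. The median of the 6 was -2.15, beside -0.04 for all tested genes. *Ccr1*, the receptor of *Ccl3*, *Ccl5*, *Ccl6* and *Ccl9* on myeloid cells, had 291 and 488 normalized counts in control and 67.9 and 43.3 in *Bmal1* cKO libraries (log2 fold change -2.77, standard error 0.35, limma adjusted p = 0.0020). The groups were well apart, and leaving out any 1 mouse gave -2.40 to -3.15 with adjusted p of 0.0187 to 0.0288.

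*Ccr2*, the receptor of *Ccl2* and *Ccl7* on monocytes, had 261 and 58.4 normalized counts in control and 36 and 17.6 in *Bmal1* cKO libraries (-2.25, adjusted p = 0.0525). As with its ligands control mouse 1 was the highest, but the groups did not overlap, and GC correction gave -3.36 with an adjusted p of 0.0251. *Ccr9*, the receptor of *Ccl25*, had 22.8 and 15.2 in control and 5.14 and 2.70 in *Bmal1* cKO libraries (-2.04, adjusted p = 0.0593), few reads and in the opposite direction to its ligand. Its call was gained after GC correction (-2.75, adjusted p = 0.0369), in edgeR (adjusted p = 0.0405), without a filter and with library total or upper quartile scaling. DESeq2 (adjusted p = 0.109), epithelial marker scaling (0.1) and a block for mouse number (0.0931, and 0.0643 with GC correction) did not call *Ccr9*. *Ccr7* of dendritic and naive T cells (117 and 9.32 against 2.06 and 5.41, -2.98, adjusted p = 0.0947), *Ccr6* (99.7 and 9.32 against 5.14 and 20.3, -1.50, 0.337) and the related *Ccrl2* (50.7 and 360 against 40.1 and 27.0, -2.01, 0.110) did not pass the test. Without control mouse 1 or control mouse 2 the changes were -1.22 or -4.73 for *Ccr7*, 0.15 or -3.14 for *Ccr6*, -3.41 or -0.61 for *Ccrl2* and -1.18 or -3.32 for *Ccr2*. *Ccr4* (13 and 5 reads against 0 and 0) and *Ccr10* (12.7 and 11 against 3.09 and 5.41 normalized counts) were too low to be tested, and *Ccr3*, *Ccr8* and *Ccr1l1* were not listed.

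**Figure D5:**
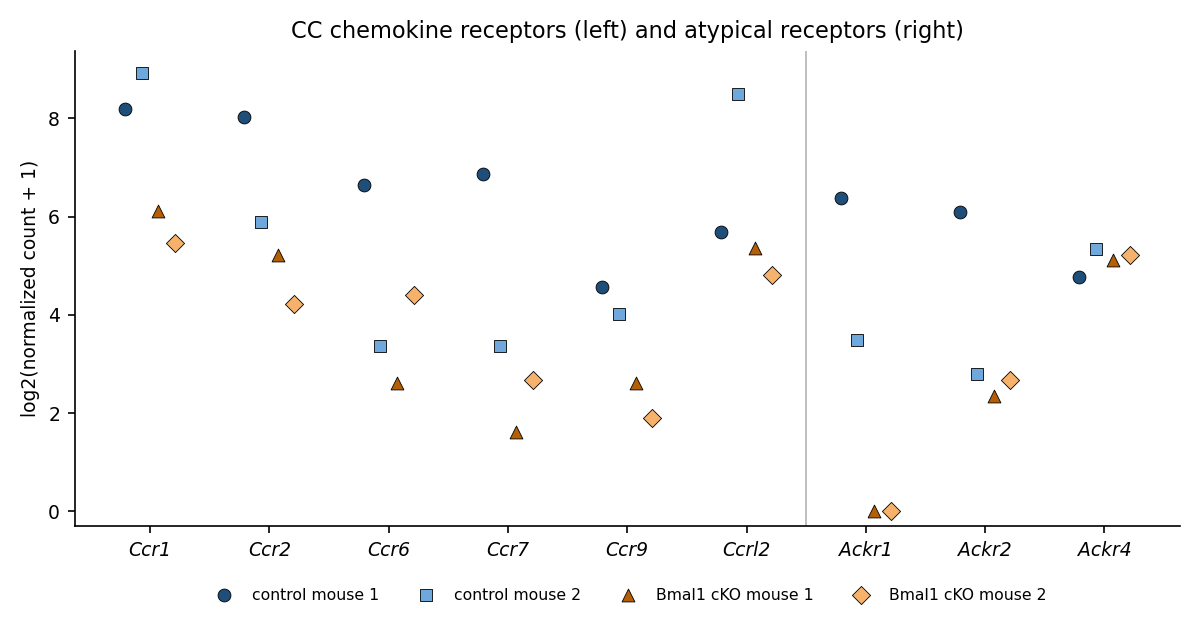
Normalized counts of the tested CC chemokine receptors and atypical receptors in each of the 4 libraries, plotted as log2(normalized count + 1), 1 point per mouse. *Ccr1* (291 and 488 in control, 67.9 and 43.3 in *Bmal1* cKO) was separate between the groups, and *Ccr6* and *Ackr4* overlapped.

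Of 3 atypical receptors, which bind chemokines without G protein signalling, 1 fell, a share near the 27.7% of all genes. *Ackr1*, known from venular endothelium and a binder of *Ccl2*, *Ccl5*, *Ccl7* and *Ccl11*, had 82.8 and 10.2 normalized counts in control and 0 in both *Bmal1* cKO libraries, at least 13-fold lower against the floor of 3 reads per library (log2 fold change -4.93, adjusted p = 0.0208). Without control mouse 1 the bound was 2.85-fold (adjusted p = 0.0182), and without *Bmal1* cKO mouse 1 or 2 the change was again -4.93 but the call was lost (adjusted p = 0.096 or 0.0988). The scavenger *Ackr2* had 67.6 and 5.93 in control and 4.11 and 5.41 in *Bmal1* cKO libraries (-1.93, adjusted p = 0.213). Without control mouse 1 or control mouse 2 the *Ackr2* change was -0.28 or -3.58. *Ackr4*, which takes up *Ccl25*, had 26.2 and 39.8 against 33.9 and 36.5 (0.12, adjusted p = 0.812).

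Downstream of the receptors, 13 of 24 tested signalling genes fell and 4 rose, against 27.7% and 29.0% of all tested genes. After GC correction 12 were lower and 6 higher, against 17.6% and 18.4% of all tested genes. The haematopoietic GTPase *Rac2* had 570 and 626 normalized counts in control and 11.3 and 21.6 in *Bmal1* cKO libraries (-5.16, limma adjusted p = 0.0005), while the widely expressed G protein subunit *Gnai3* had 3326 and 3278 against 8621 and 8136 (1.34, adjusted p = 0.0005), and 0.50 (adjusted p = 0.0144) after GC correction. *Gnb2*, another G protein subunit, had 3561 and 3652 against 1365 and 1160 (-1.52, adjusted p = 0.0005), and -0.23 (adjusted p = 0.0838) after correction. *Gnai1* had 159 and 146 against 172 and 264 (0.48, adjusted p = 0.151), which did not pass the test, and its direction changed after correction (-0.28, adjusted p = 0.395). Among genes for chemokine cleavage and heparan sulfate, 4 of 14 fell and 2 rose, shares near or below those of all genes (27.7% and 29.0%). After GC correction 1 was lower and 1 higher, beside 17.6% and 18.4% of all genes. *Dpp4*, an epithelial peptidase known to trim CC chemokines, had 484 and 465 in control and 987 and 1222 in *Bmal1* cKO libraries (1.21, adjusted p = 0.0014), but 0.35 (adjusted p = 0.0798) after GC correction. The heparan sulfate sulfotransferases *Hs6st1* (1124 and 1055 against 573 and 634, -0.85, adjusted p = 0.0020) and *Hs2st1* (640 and 634 against 1026 and 1029, 0.69, adjusted p = 0.0025) moved in opposite directions, and neither passed the test after correction (0.13 and 0.16).

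Among cytokines and transcription factors known to induce CC chemokines, 12 of 19 tested genes fell and 1 rose, against 27.7% and 29.0% of all genes. After GC correction 9 were lower and 2 higher, against 17.6% and 18.4% of all genes. The cytokine *Tnf* had 189 and 246 normalized counts in control and 55.5 and 36.5 in *Bmal1* cKO libraries (-2.23, limma adjusted p = 0.0026), and the 2 groups were well separated. The NF-κB subunit *Rela* had 994 and 1030 against 285 and 276 (-1.85, adjusted p = 0.0005), and -0.64 after GC correction. *Nfkb2*, also of the NF-κB family, had 1076 and 1069 against 237 and 189 (-2.34, adjusted p = 0.0005), and -1.12 (adjusted p = 0.0041) after correction. *Cebpb*, a factor of myeloid and epithelial cells, had 819 and 772 against 31.9 and 52.7 (-4.24, adjusted p = 0.0005), and -1.71 (adjusted p = 0.013) after correction.

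The median profile of the 10 members over the 4 libraries was highest in control mouse 1 and lowest in the *Bmal1* cKO mice. Among 11224 other genes the profiles nearest to it, by the root mean square difference of centred log2 values over these 4 libraries, were those of *Tm4sf1* (0.221), *Krt84* (0.230), *Cald1* (0.240), *Spred3* (0.242) and *Akna* (0.258). *Tm4sf1*, a membrane protein gene, had 246 and 91.5 normalized counts in control and 32.9 and 32.4 in *Bmal1* cKO libraries. With 4 libraries such likeness is a description only.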

How the data were processed

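Colonic epithelial cells of 2 control and 2 *Bmal1* cKO mice were sequenced. Per the study's methods the authors aligned reads to GRCm38 with STAR and tested differential expression with DESeq2. The counter, its strand setting and the annotation are not given in the sources used here, and the labels and the methods name different library kits. The values deposited by the authors are a signal: the counts of each gene over the size factor of its library. The authors' own mean, log2 fold changes, standard errors, Wald statistics and p-values, also deposited, were not used. Dividing by the value of 1 read gave whole reads for 100% of values (tolerance 0.02 reads).

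For testing, log2(normalized count + 1) was used, and 13983 genes whose mean reached 10 were tested with limma 3.58.1 (trend, two-sided), Benjamini-Hochberg adjustment and a threshold of 0.05. P-values measure the spread between 2 mice per group. An exact permutation test of 2 against 2 cannot go below 0.333, and no outlier test was possible. Alternatives were edgeR 4.0.16 and DESeq2 1.42.0 on the recovered reads, other pseudocounts (0.5, 5), filters and scalings, a loess fit (span 0.3) that removed trends with GC content and exon length from each library, a block for mouse number and leaving out each mouse. Lengths, GC content and coordinates were taken from GENCODE M21 (GRCm38). Intervals and floors on reads cover counting error only. The main fit, edgeR, DESeq2 and the correction for GC content and length were tested on simulated counts.

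Named were all members, the other listed CC chemokines and the listed receptors, the first gene and the 3 of lowest adjusted p of other lists (of marker lists, only some of these are given), and the 5 genes nearest in profile with a mean of at least 50. Other genes of these lists were given in counts. A gene of the receptor list is not reported here and was left out of its counts. Members and lists were chosen with earlier results of these data known.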

Additional observations from a re-analysis of the deposited data

How the results depend on the processing

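Of 159 member values under 16 alternatives, 130 kept their direction and side of the threshold, 16 lost the call, 9 gained it and 4 changed direction. *Ccl5* kept its call in all 15 alternatives that tested it, the filter at a mean of 50 having removed it. Library total, upper quartile and epithelial marker scaling shifted the median of all genes by -0.22, -0.18 and 0.19, and gave 4885, 4665 and 3048 lower and 3091, 3268 and 4577 higher genes, against 3871 and 4059.

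Of 7930 genes called in all, 5033 were called after the GC and length correction, 4257 with the replicate block added to it, and 4859–6006 when leaving out 1 mouse. The 5 members lower became 8 in DESeq2 and 2–6 when leaving out 1 mouse. The 1 member higher became 0 with the GC correction, with or without the block (limma adjusted p, and 0 also at an unadjusted p under 0.05, with *Ccl25* at 0.0633 and 0.0981), whereas edgeR and DESeq2 called 1, and it was 1–2 when leaving out 1 mouse. The 1 receptor lower became 3 without a filter, with library total or upper quartile scaling and with the GC correction, 2 with epithelial marker scaling, in edgeR, and with the replicate block with or without the GC correction, 4 in DESeq2, and 1–3 when leaving out 1 mouse. In fits without 1 mouse the lone mouse of a group is assumed to vary like the others. Causes of these shifts were not tested.

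Direction changed for *Ccl7* in edgeR (-0.80) and DESeq2 (-0.79). Leaving out 1 mouse gave -1.76 to 3.89 for *Ccl7*, -3.97 to 0.15 for *Ccl8*, -3.14 to 0.15 for *Ccr6* and -0.17 to 0.41 for *Ackr4*, with the sign changed without control mouse 2 for *Ccl7* and without control mouse 1 for the others. It also changed for *Ccl27a* with the GC correction, with or without the block (0.16), and for *Ackr4* with library total (-0.10) and upper quartile scaling (-0.055) and with the GC correction, with or without the block (-0.36).

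Mouse numbers were not shown to pair the mice (correlation of deviations -0.0908). With the replicate block as a term, 6 members were lower, 1 higher, 2 receptors lower and 7688 genes called in all, and *Ccl2* (adjusted p = 0.04, but 0.0637 with the GC correction added) and *Ccr2* (0.00768, and 0.0142 with the GC correction added) gained their calls. Depth limited *Ccl5*, *Ccl11*, *Ccl3*, *Ccl4* and *Ccl2* in the *Bmal1* cKO libraries, where few reads or none were counted.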
